A study of Danio rerio with 6 samples.

Results

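The circadian clock genes and the light-induced DNA repair genes of zebrafish were examined in whole larvae exposed to PCB-11. The members were 41 gene symbols fixed as a list, and the count tables held 39 of them among 14791 gene symbols. The symbols clock3 and ciarta had no row, and RefSeq's gene table (assembly GRCz12tu) lists clock3 as an older name of clockb, which had one. In all, 38 members passed the expression filter and were tested.

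PCB-11 is 3,3'-dichlorobiphenyl, a polychlorinated biphenyl with few chlorines. Every pool held 18 to 20 whole AB-strain zebrafish collected 96 h post fertilization (hpf). The 3 control pools had DMSO vehicle from 24 hpf on, at 0.05% v/v, and the 3 exposed pools had 4500 µg/L PCB-11 in the same vehicle. Animals of both groups had their chorions removed by hand and were kept 5 to a glass vial. The labels state neither a clock hour of collection nor a light schedule, nor whether pools came from separate clutches. The p-values therefore reflect pool-to-pool spread only, and that spread may in part be technical. In bulk RNA of a whole animal, fewer cells of a type and less RNA per cell cannot be told apart.

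The vertebrate clock is a transcription loop. CLOCK and BMAL proteins (BMAL is encoded by the arntl genes) form pairs that bind E-box elements and switch on the period (per) and cryptochrome (cry) genes, whose proteins then repress that pair. A second loop of nuclear receptors, with the REV-ERB repressors (nr1d genes) against the ROR activators, acts on the bmal genes, and bZIP factors that bind D-box elements (dbp, tef and hlf as activators, nfil3 as repressors) carry rhythm to further genes. Most zebrafish tissues sense light directly, and light induces per2, cry1a and several DNA repair genes in them, in part through D-box elements. Photolyases are enzymes that use the energy of light to reverse ultraviolet damage in DNA.

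Counts assigned to genes ran from 15705712 to 20479751 per pool, so that sampling of reads limits mainly the members with few counts. Each of 9 tissue marker lists was detected in every pool and of their genes gap43 alone was at 0 throughout. PCB-11 replicates 2 and 3 stood apart in these lists. Replicate 2 had the largest summed neuron level (4948 CPM against 3210 to 3888 in the other 5 pools) and the smallest summed intestine level (1998 CPM against 2650 to 3268). PCB-11 replicate 3 had the largest summed skeletal muscle level (87120 CPM against 54260 to 73010 in the other 5 pools) and the smallest summed neuron level (3210 CPM). Summed macrophage markers parted the pools across the groups, with sums of 74.2 to 109.4 CPM in 3 pools (PCB-11 replicate 3, DMSO replicate 2 and DMSO replicate 3) and of 35.2 to 38.9 CPM in the rest. The sums count mfap4 again under the listed symbol mfap4.1, and not every marker followed this split. For example, mpeg1.2 had 8.255 CPM in DMSO replicate 3 and 9.581 in PCB-11 replicate 2. CPM stands for library-scaled counts in the usual unit, after TMM scaling, a correction for library composition.

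The 5 photolyase and repair members had lower values in the PCB-11 pools. In 3 of the 5 (60%) all exposed pools lay below all controls, where 9.35% of all genes did so. The period genes leaned the same way, and no member passed the test over all genes. By edgeR's quasi-likelihood test with Benjamini-Hochberg adjustment over 12960 genes, 0 of the 38 members were called at an adjusted p under 0.05. The same rule called 0.0463% of all genes. At an unadjusted p under 0.05 there were 10 members, or 26.3%, where 11.8% of all genes stood there. Of those 10, 8 had lower values in PCB-11 (21.1% of the members, against 6.04% of all genes) and 2 had higher values (5.26%, against 5.80%). DESeq2 called 1 member, cry5, where it called 0.899% of genes, and limma-voom called 0% of genes and 0 members, with 11 members (11.9% of all genes) at an unadjusted p under 0.05.

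The 3 PCB-11 pools lay below all DMSO pools in 8 members, a share of 21.1% where 9.35% of all genes did so. They lay above in 2 members, or 5.26%, where 10% of all genes did. In either direction that made 26.3% of members and 19.4% of all genes, and 60.5% of members against 49.8% of all genes had a log2 fold change below 0. The median log2 fold change (PCB-11 minus DMSO throughout) was -0.13 over the tested members and 0.0015 over all genes tested. These shares describe the list and are no test of it, because its members share a pathway and were listed with earlier results of these data known.

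**Figure D1:**
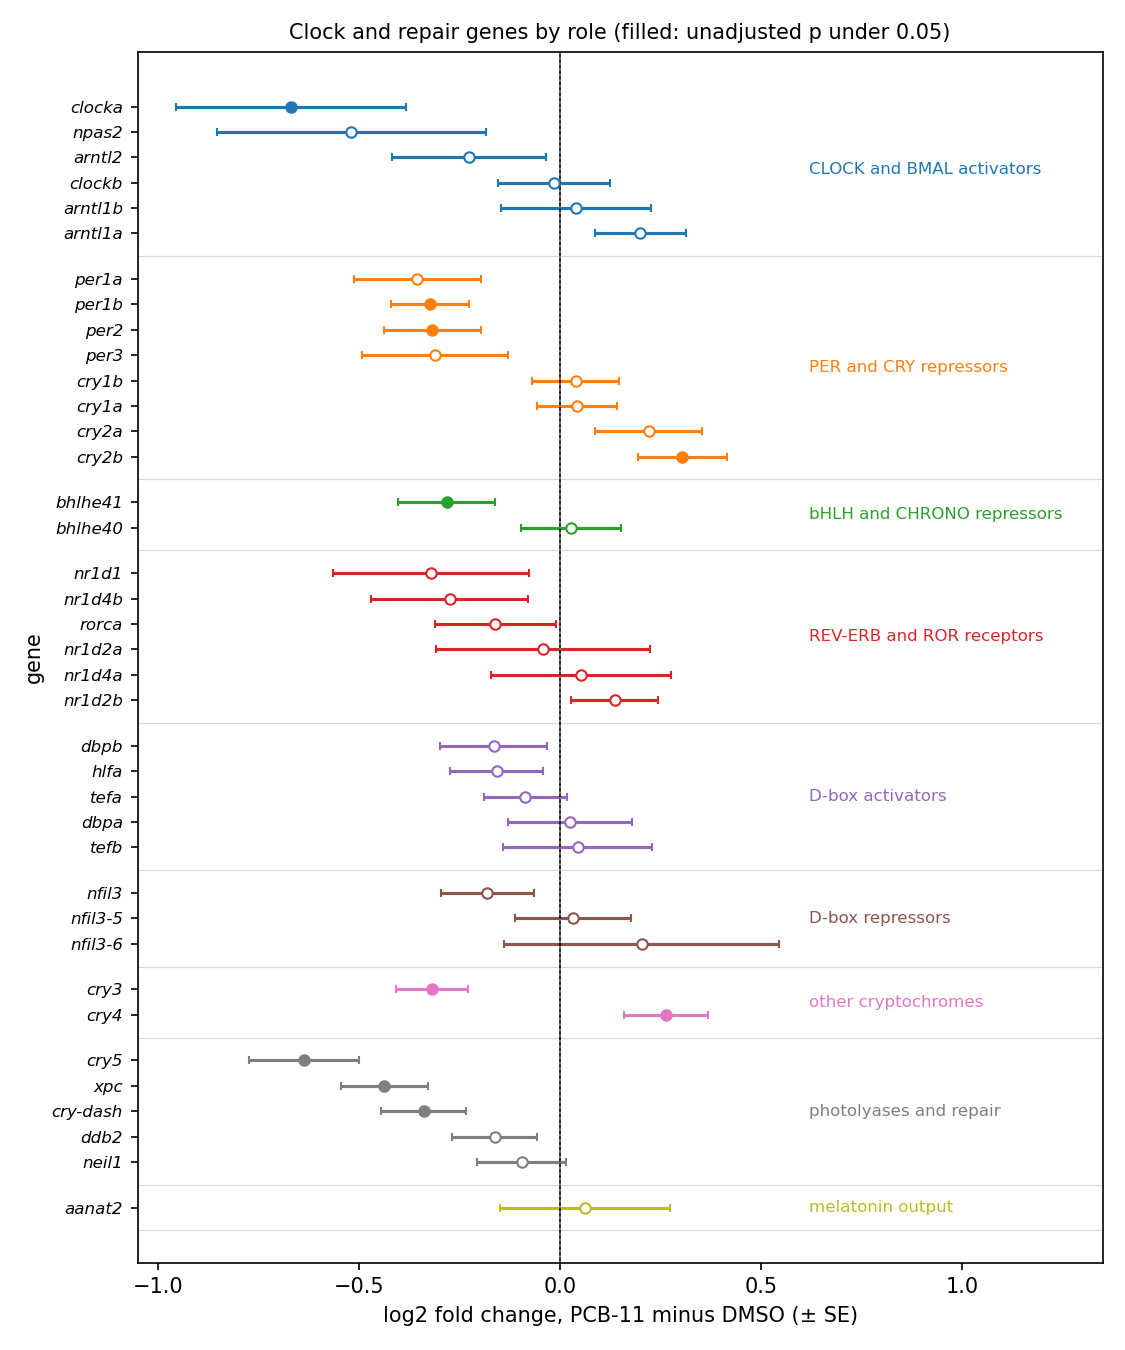
Log2 fold change (horizontal axis, PCB-11 minus DMSO, bars ± SE) of each of the 38 tested genes, in blocks by role, with filled points where the unadjusted p was under 0.05. All 5 photolyase and repair genes and all 4 period genes lie left of 0, and all 4 cry genes of the repressor block lie right of it.

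All 5 photolyase and repair genes had lower values in the PCB-11 pools, at a median log2 fold change of -0.34. In 3 of the 5 (60%, against 9.35% of all genes) the exposed pools lay below all controls. Among 39 tested genes of other DNA repair steps 30.8% did so. The gene cry5 encodes the (6-4) photolyase, which uses light to reverse a class of ultraviolet lesions. It had 53.3, 41.6 and 41.9 CPM in the control pools and 30.0, 25.2 and 32.7 CPM in the exposed pools, in the order of replicates 1, 2 and 3 here and below. Every exposed pool was below every control pool, and PCB-11 replicate 2 was the lowest. The log2 fold change of cry5 was -0.64 ± 0.14 (SE), a fold of 0.643, with an adjusted p of 0.246 in edgeR's test (unadjusted 0.0012).

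The gene xpc encodes the protein that recognises helix-distorting damage at the start of nucleotide excision repair. Its level was 50.1, 41.4 and 40.3 CPM in the DMSO pools and 32.5, 31.9 and 32.9 CPM in the PCB-11 pools. The exposed pools lay close together (SD 0.47 CPM) and below all controls. The difference in xpc came to -0.44 ± 0.11 on the log2 scale, at an adjusted p of 0.308 in edgeR's test.

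The gene cry-dash encodes a photolyase of the cryptochrome family that acts mainly on single-stranded DNA. It stood at 94.6, 76.6 and 82.3 CPM in the control pools, and at 65.0, 64.5 and 70.8 CPM in the exposed pools. The groups again did not overlap, with a log2 difference of -0.34 ± 0.10 that did not pass in edgeR's test (adjusted p = 0.326). In all 3 of these genes DMSO replicate 1 was the highest pool of the study.

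The other repair genes had smaller differences and groups that overlapped. The gene ddb2, whose product finds ultraviolet lesions and hands them to XPC, had 53.4 ± 5.40 CPM in controls and 47.7 ± 3.30 in exposed pools (SD, n = 3 pools each), and neil1, a glycosylase of base excision repair, had 21.3 ± 1.31 and 19.9 ± 1.75 CPM. The log2 fold change was -0.16 ± 0.11 for ddb2 and -0.10 ± 0.11 for neil1. A further photolyase gene that is no member, cpdp (zgc:66475 in the tables), reverses the commoner cyclobutane lesions and is light-induced in zebrafish. Its level was 69.6 ± 4.23 CPM in controls and 72.1 ± 5.16 in exposed pools, a log2 difference of 0.05 ± 0.10, so the lower values did not extend to every photolyase gene.

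Leaving out a pool kept the arm's median below 0, between -0.41 without DMSO replicate 2 and -0.25 without DMSO replicate 1. Without PCB-11 replicate 3 edgeR called cry5 (log2 fold change -0.72, adjusted p = 0.0423), along with 1.41% of all genes. Without PCB-11 replicate 2, the pool that stood apart in neuron and intestine levels, the fold change of cry5 was -0.54 and that of xpc -0.425. Marker lists moved with the groups as well. Intestine markers were lower in PCB-11 (12 of 14 tested, summed 3206 to 3268 CPM in DMSO and 1998 to 3100 in PCB-11), and lens markers were higher (11 of 11, summed 5439 to 6495 CPM and 7476 to 10080). At an unadjusted p under 0.05 in edgeR's test, 57.1% of intestine markers were lower (6.04% of all genes). By the same rule 81.8% of lens markers were higher (5.80% of all genes). The median log2 fold changes were -0.43 and 0.50. Of 18 tested photoreceptor markers 12 had lower values and 6 higher, with 6 lower (33.3%, against 6.04% of all genes) and 2 higher at an unadjusted p under 0.05. Their median log2 fold change was -0.28, where that of the repair genes was -0.34 and that of the intestine markers -0.43. The kinase genes grk1a (-0.65) and grk7a (-0.56) and the phosphodiesterase gene pde6c (-0.32) lay below all controls in every exposed pool. The opsin gene opn1lw2 (0.58) lay above all controls in every exposed pool, and the opsin gene opn1mw2 (0.72) was higher with overlap. Summed photoreceptor levels were 10640 to 13760 CPM in DMSO and 9269 to 13860 in PCB-11. The part of these cell types in the repair genes' values was not tested.

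**Figure D2:**
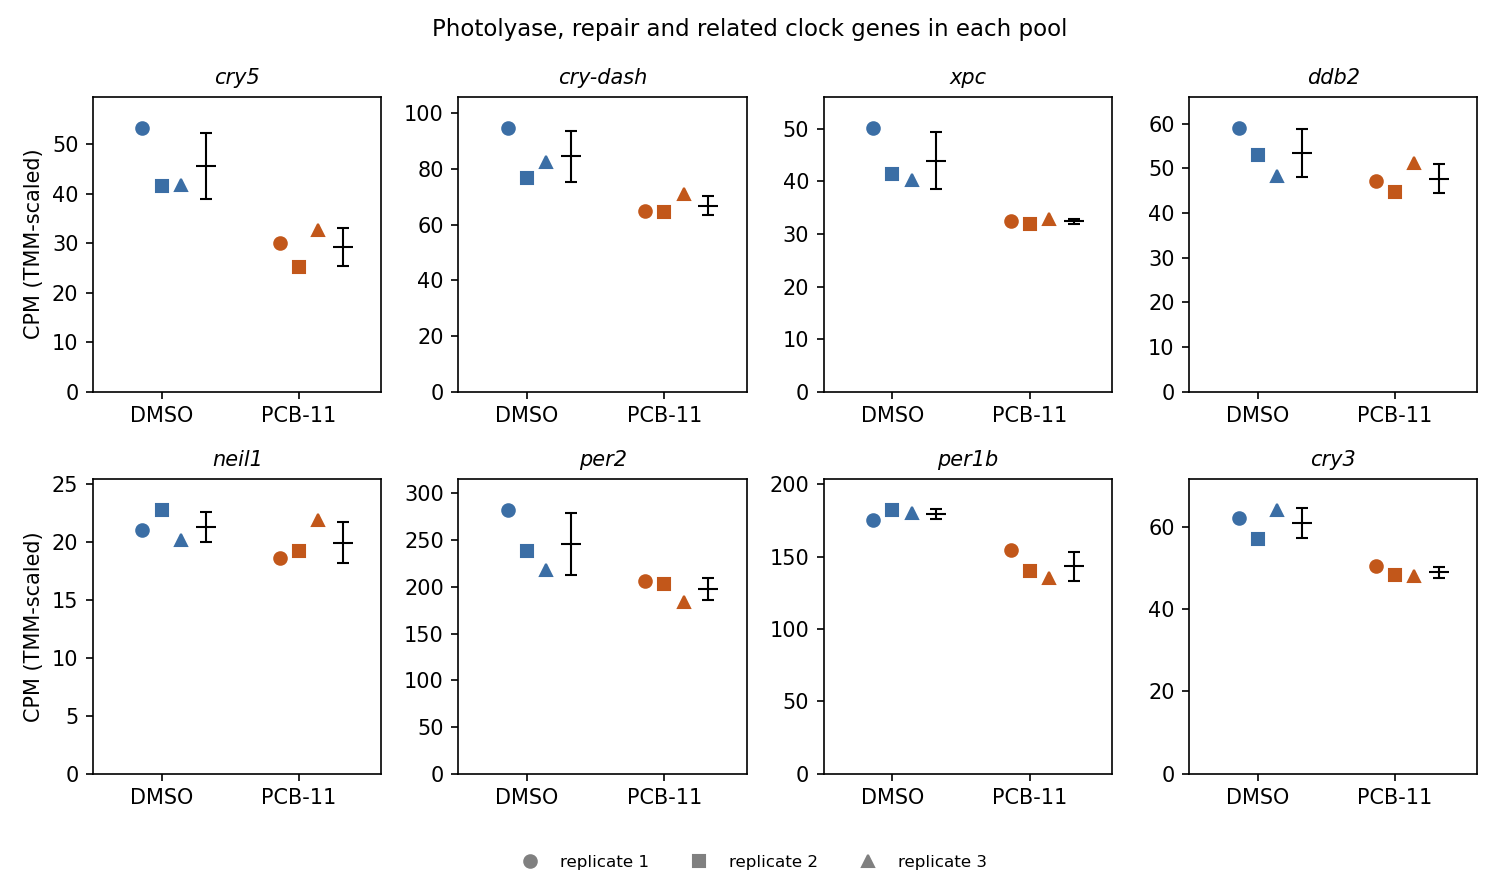
Levels (vertical axis, TMM-scaled CPM) of the 5 photolyase and repair genes and of per2, per1b and cry3 in each pool, with the mean and SD in black beside the points and marker shapes for the replicate number. In cry5, cry-dash, xpc, per2, per1b and cry3 all 3 PCB-11 pools lie below the DMSO pools, while in ddb2 and neil1 the groups overlap.

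In the repressor arm the period and cryptochrome genes lay on opposite sides of 0, a split by family described after the values were seen. All 4 per genes had lower values in PCB-11, with log2 fold changes from -0.35 to -0.31 and a median of -0.32. All 4 cry genes of this arm had higher values, from 0.04 to 0.30, with a median of 0.13. Of these, cry1a (0.04 ± 0.10) and cry1b (0.04 ± 0.11) lay within their SE of 0. Without DMSO replicate 2 the value of cry1b was -0.04. The arm as a whole had a median of -0.14 and 0 members called by edgeR. At an unadjusted p under 0.05 were 3 of 8 members (37.5%, against 11.8% of all genes).

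The gene per1b had 175.5, 182.1 and 180.5 CPM in the control pools and 154.5, 140.5 and 135.4 CPM in the exposed pools. The controls lay within a narrow band, and the exposed pools were all below it. This gave a log2 fold change of -0.32 ± 0.10 (edgeR adjusted p = 0.321, unadjusted 0.0086).

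The gene per2, the period gene that light induces, had 281.7, 238.1 and 217.6 CPM in the DMSO pools and 205.8, 202.4 and 183.8 CPM in the PCB-11 pools. The groups did not overlap, though PCB-11 replicate 1 was only slightly below DMSO replicate 3. Its log2 difference was -0.32 ± 0.12 at an adjusted p of 0.395 in edgeR, and -0.21 without DMSO replicate 1, the highest pool. The other period genes overlapped between groups, with -0.35 ± 0.16 for per1a and -0.31 ± 0.18 for per3, and in both PCB-11 replicate 3 was the lowest pool. Without that replicate the fold change was -0.21 for per1a and -0.15 for per3.

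Among the cryptochromes of this arm, cry2b was the member whose groups did not overlap. It had 38.5, 33.6 and 33.8 CPM in the control pools and 40.9, 49.1 and 41.03 CPM in the exposed pools, a log2 fold change of 0.30 ± 0.11 (edgeR adjusted p = 0.385). For cry2a the means were 176.9 ± 13.7 CPM in controls and 206.1 ± 32.5 in exposed pools, with overlap. Both were highest in PCB-11 replicate 2, the pool with the largest summed neuron level, and without it their fold changes were 0.21 for cry2b and 0.13 for cry2a. The part of neuron content in these values was not tested.

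The light-induced cry1a lay apart from per2 in its values. Its levels were 265.3, 249.8 and 242.0 CPM in the DMSO pools and 256.7, 273.4 and 249.6 CPM in the PCB-11 pools. The groups overlapped over most of their range, and the log2 difference was 0.04 ± 0.10. Its paralog cry1b had 53.2 ± 6.28 CPM in controls and 54.7 ± 3.31 in exposed pools.

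The remaining repressors of the CLOCK and BMAL pair are the bHLH proteins encoded by bhlhe40 and bhlhe41. The gene bhlhe41 had 45.4, 51.2 and 54.7 CPM in the control pools and 36.7, 40.5 and 47.3 CPM in the exposed pools. The groups overlapped, since PCB-11 replicate 3 was above DMSO replicate 1, and the log2 difference was -0.28 ± 0.12 (edgeR adjusted p = 0.412). Levels of bhlhe40 were 419.7 ± 26.9 CPM in controls and 427.6 ± 52.7 in exposed pools.

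The cryptochromes cry3 and cry4, which did not repress the CLOCK and BMAL pair in zebrafish reporter assays, differed in opposite directions. RefSeq now calls cry3 cry2, and the cry2a and cry2b above cry3a and cry3b; the symbols of the tables are kept here. The gene cry3 had 62.1, 56.9 and 63.9 CPM in the DMSO pools and 50.5, 48.1 and 48.1 CPM in the PCB-11 pools. All exposed pools were below the controls, by -0.32 ± 0.09 on the log2 scale (edgeR adjusted p = 0.317, unadjusted 0.0059). The gene cry4 had 27.6, 24.8 and 25.0 CPM in the control pools and 31.4, 33.4 and 28.2 CPM in the exposed pools. Here all exposed pools were above the controls, by 0.26 ± 0.10 (edgeR adjusted p = 0.400).

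In the activator arm, 4 of 6 tested members had lower values and 2 higher, with a median log2 fold change of -0.12 and 0 called by edgeR. At an unadjusted p under 0.05 was 1 member (16.7%, against 11.8% of all genes). That member was clocka, with 1.78, 2.24 and 1.43 CPM in the DMSO pools and 1.29, 1.29 and 0.84 CPM in the PCB-11 pools. It rested on 16 to 43 counts per pool, and its log2 difference of -0.67 ± 0.29 did not pass in edgeR's test (adjusted p = 0.412). The paralog clockb, with 618 to 931 counts per pool, had 41.1 ± 2.05 CPM in controls and 40.7 ± 7.79 in exposed pools.

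Of the bmal genes, arntl1a had 27.6 ± 0.40 CPM in controls and 31.8 ± 4.18 in exposed pools, a log2 fold change of 0.20 ± 0.11. The paralog arntl1b was at 13.7 ± 1.79 and 14.1 ± 3.46 CPM. The low-count members npas2, a paralog of the clock genes, and arntl2 had -0.52 ± 0.33 and -0.23 ± 0.19. Leaving out a pool moved npas2 between -1.01 (without PCB-11 replicate 1) and -0.27 (without PCB-11 replicate 3), and arntl2 between -0.41 and -0.077 for the same pools. In all these 6 genes PCB-11 replicate 3 was the lowest exposed pool, and without it the arm's median was 0.02. A stricter filter, which drops clocka and npas2, also moved the median to 0.01.

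**Figure D3:**
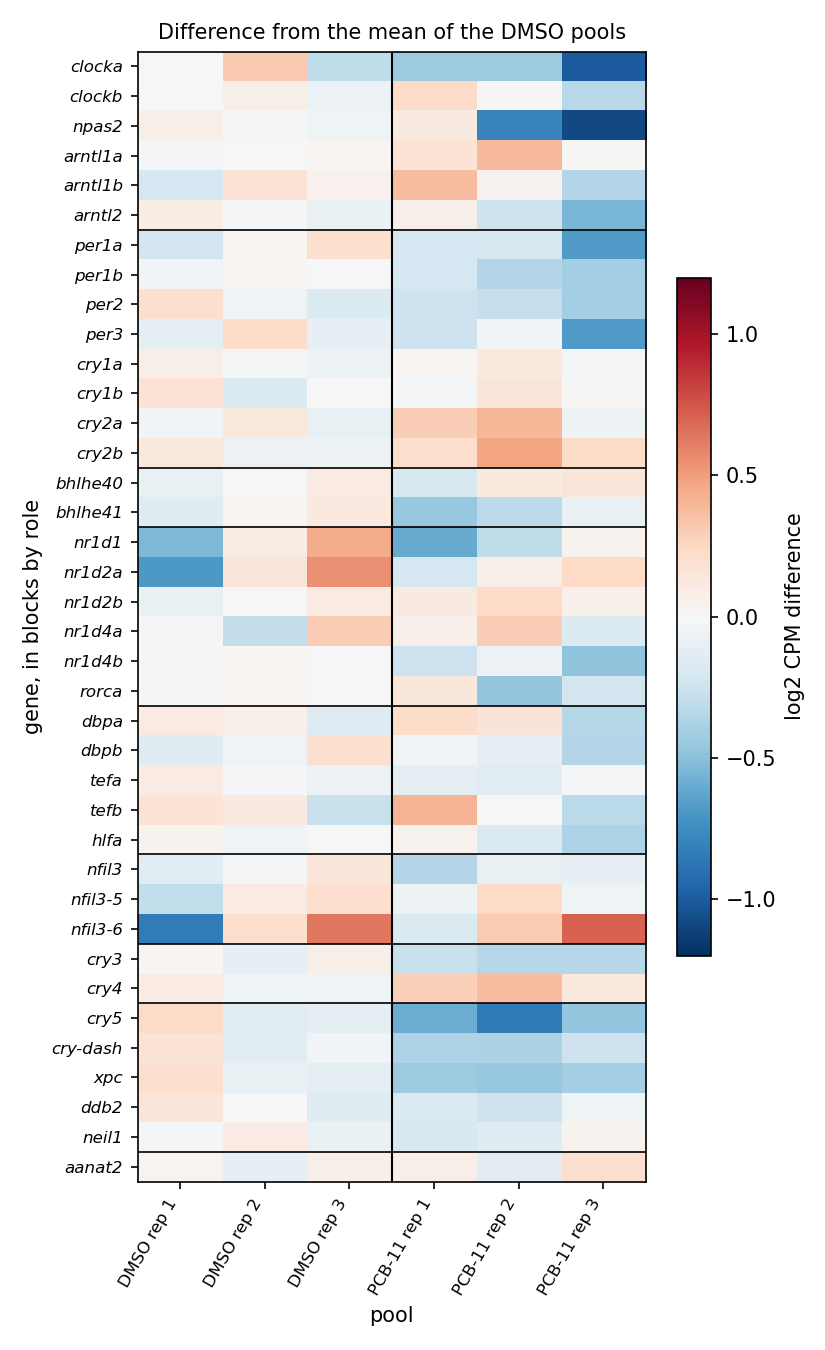
Each row is a gene, in blocks by role, each column a pool, and colour gives the log2 CPM difference from the mean of the 3 DMSO pools. Blue runs across the PCB-11 pools in clocka, per1b, per2, cry3, cry5, cry-dash and xpc, among others, while nr1d1, nr1d2a and nfil3-6 change colour among pools of the same group.

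The REV-ERB genes nr1d1 and nr1d2a and the D-box gene nfil3-6 varied more among pools of a group than between the groups. The gene nr1d1, whose product represses the bmal genes, had 201.7, 312.9 and 400.1 CPM in the control pools and 192.6, 237.1 and 302.9 CPM in the exposed pools. The highest control pool was 1.98 times the lowest. The log2 fold change of -0.32 ± 0.24 was thus uncertain (edgeR adjusted p = 0.599), and it was -0.55 without DMSO replicate 1 and -0.08 without DMSO replicate 3.

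The related nr1d2a had 128.4, 228.8 and 302.3 CPM in the DMSO pools and 178.6, 217.3 and 245.0 CPM in the PCB-11 pools, with a difference of -0.04 ± 0.27. The D-box repressor gene nfil3-6 had 82.2, 171.2 and 228.4 CPM in controls and 131.2, 182.3 and 241.6 CPM in exposed pools, with 0.20 ± 0.34. In these 3 genes the pool labelled replicate 1 was the lowest and the pool labelled replicate 3 the highest in both groups. This order was not theirs alone among the tested members. It also held in bhlhe40 and bhlhe41, and the reverse order held in both groups in per2, npas2, arntl2, dbpa and tefb. The values of nr1d1 and nr1d2a are shown pool by pool because of their spread, after they were seen. The within-group SD of log2 CPM was 0.42 for nr1d1, 0.47 for nr1d2a and 0.62 for nfil3-6, above 92.9%, 95.1% and 98.3% of all genes tested. The median over all genes was 0.17. Their paralog nr1d2b did not share it, with 360.2 ± 23.2 CPM in controls, 396.0 ± 25.0 in exposed pools and a within-group SD of 0.09.

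**Figure D4:**
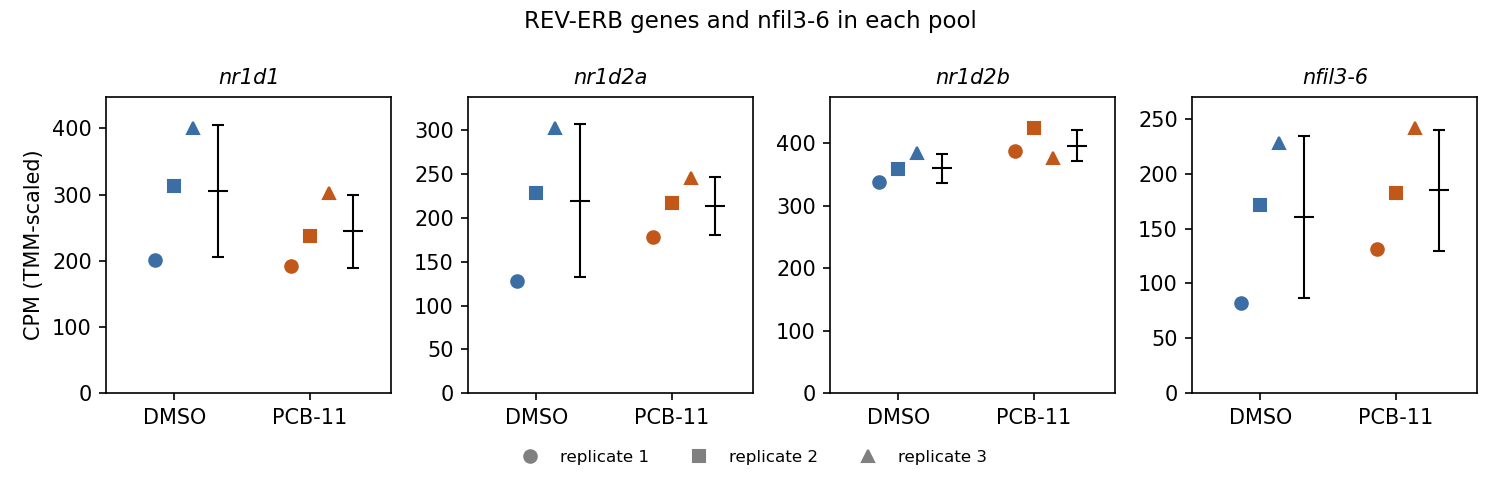
Levels (vertical axis, TMM-scaled CPM) of nr1d1, nr1d2a, nr1d2b and nfil3-6 in each pool, with mean and SD in black and marker shapes for the replicate number. In nr1d1, nr1d2a and nfil3-6 the circle (replicate 1) is lowest and the triangle (replicate 3) highest in both groups, and nr1d2b lies between 337.9 and 424.1 CPM.

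In the receptor arm 6 of 7 members were tested, with a median log2 fold change of -0.10 and 0 members at an unadjusted p under 0.05 (11.8% of all genes). The median was 0.05 without DMSO replicate 3 and -0.23 without DMSO replicate 1. With the replicate number as a block in edgeR's fit, nr1d1 had an unadjusted p under 0.05. The groups of nr1d4b did not overlap, at 2.87, 2.97 and 2.90 CPM in the DMSO pools and 2.43, 2.76 and 2.05 CPM in the PCB-11 pools. That difference of -0.27 ± 0.20 rested on 39 to 57 counts per pool (edgeR adjusted p = 0.576). The gene nr1d4a had 3.12 ± 0.66 and 3.25 ± 0.54 CPM, and rorca, which encodes an activating receptor, had 18.6 ± 0.34 and 16.6 ± 3.52. The gene rorcb had 0, 2 and 4 counts in the control pools and 3, 3 and 6 in the exposed pools, and was not tested. A count of 0 in DMSO replicate 1 still allows up to 0.172 CPM, counting error alone considered.

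Of the D-box factors, 0 of 8 members were at an unadjusted p under 0.05, where 11.8% of all genes were, and edgeR called 0. So few genes cannot be told from that share. The difference in nfil3-6 was uncertain, from -0.11 to 0.54 on leaving out a pool. The activator tefa had 365.3, 335.2 and 326.0 CPM in the DMSO pools and 316.0, 312.4 and 338.8 CPM in the PCB-11 pools. The groups overlapped through PCB-11 replicate 3, and the log2 difference was -0.09 ± 0.10. The other activators ran from -0.16 ± 0.13 for dbpb and -0.16 ± 0.12 for hlfa to 0.03 ± 0.15 for dbpa and 0.04 ± 0.18 for tefb, giving a median of -0.09 over the 5 genes.

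Among the D-box repressors, nfil3 had 33.5 ± 3.19 CPM in controls and 29.6 ± 2.93 in exposed pools, and nfil3-5 had 54.6 ± 9.54 and 55.9 ± 6.94. The median over the 3 nfil3 genes was 0.03. The pineal enzyme gene aanat2, which sets the nightly rhythm of melatonin synthesis, had 2.01, 1.82 and 2.04 CPM in the DMSO pools and 2.07, 1.78 and 2.26 CPM in the PCB-11 pools. At 29 to 43 counts per pool its groups overlapped fully, with a log2 difference of 0.06 ± 0.21.

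The order of the arms by median log2 fold change put the photolyase and repair genes lowest (-0.34). The PER and CRY repressors (-0.14), the bhlhe genes (-0.13), the activators (-0.12), the receptors (-0.10) and the D-box activators (-0.09) had values close together. The pair cry3 and cry4 was at -0.03, the D-box repressors at 0.03 and aanat2 alone at 0.06. The order of the arms above the repair genes was not stable to leaving out a pool. The median then ran from -0.16 to -0.045 for the PER and CRY repressors, from -0.21 to -0.037 for the bhlhe genes, from -0.28 to 0.02 for the activators, from -0.17 to -0.036 for the D-box activators and from -0.11 to 0.13 for the D-box repressors. The lowest and highest were, in turn, without PCB-11 replicates 2 and 3, PCB-11 replicates 3 and 1, PCB-11 replicates 1 and 3, PCB-11 replicate 1 and DMSO replicate 1, and DMSO replicates 1 and 3. The receptors' median ran from -0.23 without DMSO replicate 1 to 0.054 without DMSO replicate 3. Pool by pool, the median difference of the repair genes from the DMSO mean was -0.37, -0.38 and -0.25 in PCB-11 replicates 1, 2 and 3 and 0.17, -0.08 and -0.11 in the DMSO replicates. The activators gave 0.14, -0.12 and -0.45 in the PCB-11 replicates, so the exposed pools did not share a direction there. No test was made of the difference between arms.

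Further genes of the pathway were taken from 4 lists, and edgeR called 0 of their 101 tested genes. Among 32 tested regulators of clock proteins and clock outputs, 2 lower and 2 higher genes had an unadjusted p under 0.05, or 12.5%, where 11.8% of all genes did. The lower ones were cdkn1a, a brake on the cell cycle, at -0.71 ± 0.16 and the kinase gene sik1, whose product limits resetting of the clock by light in mice, at -0.53 ± 0.24. The higher ones were id2a and id2b, inhibitors of bHLH factors, at 0.31 ± 0.12 and 0.32 ± 0.14. For cdkn1a the means were 45.03 ± 9.37 CPM in controls and 27.5 ± 3.94 in exposed pools.

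Of 17 tested non-visual opsins, the light sensors outside the classical rods and cones, 12 had higher values and 5 lower (29.4%, against 49.8% of all genes). At an unadjusted p under 0.05 were opn3 (0.39 ± 0.15) and valopa (0.88 ± 0.33), or 11.8% of the list, the same share as the 11.8% of all genes. Levels of opn3 were 9.63 ± 1.50 CPM in PCB-11 against 7.35 ± 0.21 in DMSO. Those of valopa were 1.15 ± 0.04 against 0.62 ± 0.23 and rested on only 7 to 23 counts per pool. Of 14 tested pineal and melatonin genes 12 were higher, at a median of 0.30 on the log2 scale. Lower values were found in 14.3% of them, against 49.8% of all genes. At an unadjusted p under 0.05 were 3 genes (21.4%, against 11.8% of all genes). In the pool medians PCB-11 replicate 2 stood at 0.49 against 0.05 to 0.11 in the other exposed pools. The list included aanat1, the retinal counterpart of aanat2, at 3.95 ± 0.39 CPM in controls and 6.35 ± 0.90 in exposed pools (0.68 ± 0.17), and the serotonin synthesis gene tph2 at 9.23 ± 0.22 and 12.7 ± 2.03 CPM (0.46 ± 0.14). The cone phosphodiesterase gene pde6c was lower (-0.32 ± 0.13). Both pde6c and gnat2 of this list were also among the photoreceptor markers, and exorh was counted in the opsin list as well.

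Among 39 tested genes of other DNA repair steps, 2 higher and 2 lower genes had an unadjusted p under 0.05 in edgeR's test. That came to 10.3% of the list, against 11.8% of all genes, and the list's median log2 fold change was -0.03. The lower ones were the mismatch repair gene msh6 (-0.30 ± 0.09) and rad23aa, which encodes a partner of XPC (-0.25 ± 0.10). The higher ones were ercc8, of transcription-coupled repair (0.32 ± 0.13), and rpa3, a subunit of the single-strand binding complex (0.32 ± 0.13). In 12 of the 39 (30.8%, against 9.35% of all genes) the exposed pools lay below all controls, and in 3 (7.69%, against 10%) above them. The median in the light-linked repair genes was -0.34, and the difference between the lists was not tested. All adjusted p in these 4 lists were at least 0.281 in edgeR.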

How the data were processed

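Each pool has a deposited table of raw read counts by gene symbol, which the authors made from directional poly(A) libraries, per the labels' protocols. The submitters' processing notes name the build danRer7 and Cufflinks without a role. Which aligner, counter, strand setting and annotation were used is not given in the sources used here, so overlapping genes and close paralogs are uncertain. Levels are not compared between genes, since no transcript lengths of that annotation were used. The 2 rows that name no gene, reads outside genes (31.4% to 39.1% of a pool) and ambiguous reads (0.379% to 0.429%), stayed out of library sizes and tests.

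Groups were taken from the sample titles and compared with edgeR 4.0.16 in R 4.3.3, using its default filter (12960 of 14791 genes kept), TMM scaling, robust quasi-likelihood fits on group alone, two-sided F tests and Benjamini-Hochberg adjustment over all genes tested. Standard errors derive from the F statistic. Pool differences use log2 CPM with a prior count of 2. The fit was also run on simulated counts with known changes. These had the same variation beyond counting error in every gene and no tissue differences among pools, so they do not copy the pools studied here. Alternatives were scaling by RLE, by the upper quartile or by library size alone, a filter of 50 counts in 3 pools or none, DESeq2 1.42.0, voom in limma 3.58.1, no robust dispersion, a replicate block, and each pool left out in turn. All pairs of pools differed beyond counting error (chi-square per degree of freedom at least 6.7).

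Members, arms and lists were chosen with earlier results of these data known. Values in every pool are given for members at an unadjusted p under 0.05, members whose groups do not overlap and the member of highest mean CPM in arms without either. Outside that rule, values in every pool are also given for cry1a, nr1d1 and nr1d2a, and counts for rorcb. Of the other lists, up to 4 genes each at an unadjusted p under 0.05, and cpdp, are named. Of 140 entries in those lists 112 matched a row, 5 of them through a RefSeq synonym. Figures were drawn with matplotlib 3.10.9.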

Additional observations from a re-analysis of the deposited data

How the results depend on the processing

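The number of genes called by edgeR, 6 of 12960 with all pools, was 2 with the stricter filter, 112 in DESeq2, 0 in limma-voom (1540 at an unadjusted p under 0.05), and 0 to 184 on leaving out a pool. Members called, 0 with all pools, numbered 1 (cry5) in DESeq2 and 0 to 1 on leaving out a pool, the 1 being cry5 without PCB-11 replicate 3. Over all alternatives the log2 fold change of cry5 ran from -0.72 to -0.51 and its adjusted p from 0.0138 to 0.825. The log2 fold change ran from -0.50 to -0.33 for xpc, from -0.41 to -0.25 for cry-dash, from -0.37 to -0.28 for cry3 and from -0.38 to -0.28 for per1b. The receptor arm's median, -0.10 with all pools, ran from -0.23 to 0.054 on leaving out a pool. No scaling moved the median of all genes by over 0.1.

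Signs turned on leaving out a pool for 11 members, with ranges of -0.16 to 0.12 for clockb, -0.16 to 0.21 for arntl1b, -0.040 to 0.13 for cry1b, -0.032 to 0.12 for bhlhe40, -0.31 to 0.26 for nr1d2a, -0.084 to 0.23 for nr1d4a, -0.080 to 0.19 for dbpa, -0.17 to 0.21 for tefb, -0.10 to 0.13 for nfil3-5, -0.11 to 0.54 for nfil3-6 and -0.017 to 0.15 for aanat2. The sign of nr1d2a also turned in limma-voom (0.038). The cause was not tested.

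Same-numbered pools did not deviate together in every pair (r = 0.256, -0.147 and 0.367 across genes for replicates 1, 2 and 3). DMSO replicates 1 and 3 each correlated best with the exposed pool of the same number. For DMSO replicate 1 the correlation with PCB-11 replicate 2 was nearly as large (r = 0.23). DMSO replicate 2 correlated best with PCB-11 replicate 3, though weakly (r = 0.0996). Whether the numbers mark pairs was thus not settled, and the main fit used group alone. With the replicate number as a block edgeR called 26 genes and 0 members. At an unadjusted p under 0.05 this fit had 12 members, nr1d1 among them, and 1789 of 12960 genes. In it cry5 had an adjusted p of 0.0701, and the log2 fold change of nr1d2a was 0.031. The SE of nfil3-6 was 0.14 with the block and 0.34 without it, and that of nr1d1 0.13 and 0.24.

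Depth limits clocka, npas2, nr1d4a, nr1d4b and aanat2, which had 16 to 75 counts per pool. Counts were also low for arntl2, at 67 to 106 per pool.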
